A study of Mus musculus with 4 samples.

Results

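A group of 25 named genes was at or near 0 in both G0 lines and clearly detected in both G2 lines of mouse adenoma colonoids, out of 16857 genes in the deposited table. The genes were selected on their measured level in all 4 libraries: both G2 libraries at or over 49.6 normalized counts and both G0 libraries at or under 8.61, thresholds set on the deposited log2 scale. Normalized counts are counts recovered from the deposited values and scaled for library size. Unnamed gene models, several large families with their own expression patterns (Hox, keratin, gasdermin, chemokine, interleukin, protocadherin, potassium channel, cytochrome P450 and adhesion receptor genes), some single developmental genes and all Y chromosome genes were left out. With them, 44 genes passed both thresholds, and 19 of these carried a left-out name. With the groups exchanged, 15 named genes met the same thresholds in the opposite direction. The values of all 4 libraries chose the 25 genes, so their own levels and folds are a description and carry no test.

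The G2 lines, numbered 157 and 236, are labelled Apcnull/LSL-mTERT-homo, and the G0 lines, numbered 75 and 179, Apcnull/LSL-mTERT-het. All 4 lines thus share the Apc-null label, and their names also carry Apcmin, an allele of the Wnt pathway regulator Apc that predisposes mice to intestinal adenomas. A colonoid is a three-dimensional culture of colon epithelium. The series text sets lines of high against lines of low chromosomal instability, without saying which lines these are. One library was made per line, so a group is 2 lines, and nothing says that the lines came from separate animals. The p-values below set the difference between groups against the spread between these lines, as estimated with the help of all genes tested.

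Recovered totals were 16545429 to 17156331 counts in G2 and 17152994 to 17901744 in G0. Replicate 1 is line 157 in G2 and line 75 in G0, and values of a group are given in the order of replicates 1 and 2. Tert, the telomerase gene named in the genotype, had 0.0 and 1.0 normalized counts in G2, against 93.3 and 97.5 in G0. All 19 colon epithelial marker genes listed had a row. In limma 3 of them rose (Cdh1, Axin2 and Car1) and 3 fell (Cdx2, Vil1 and Lgals4), against 5.93% and 4.56% of all genes tested. Epcam, a surface protein of epithelia, was at 6843.6 and 8669.1 normalized counts in G2 and at 5994.5 and 6993.8 in G0. Cdx2, the intestinal identity factor, fell to 270.3 and 186.7 in G2, against 2394.9 and 3198.8 in G0 (log2 fold change -3.62, adjusted p = 0.00043, limma with Benjamini-Hochberg adjustment). Kdm5d, a Y chromosome gene, had 526.4 and 522.0 normalized counts in G2 and 0 in both G0 libraries. The presence of Y transcripts therefore coincides with the group, and a difference between G2 and G0 cannot be told apart from one between lines with and without them.

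A gene can be silent in one line and active in another without any change of its DNA sequence, because promoters differ in how they are packaged and in which factors bind them. Promoters rich in the CpG dinucleotide tend to serve broadly expressed genes, while CpG-poor promoters often serve genes restricted to a tissue. The colon epithelium normally expresses absorptive, secretory and stem cell genes, and many of the 25 genes are better known from muscle, neurons, epidermis, vessels or glands.

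Promoter sequences were given for 19 of the 25 genes, and 6 are shown as examples of promoters with few and with many CpG dinucleotides. They come from RefSeq on GRCm38.p6, run from 250 bases before the start to 50 after it on the gene's own strand, and are written 5′ to 3′. Capitals mark matches, on either strand, to short motifs. TATAAA is the motif of the TATA box, and TGANTCA is that of AP-1. AGATAA is a motif of the GATA factors, and CCAAT is the motif of the box of that name. ATCAAAG of the TCF/LEF factors and CAATAAA of posterior Hox factors were also searched and have no match in the 6 promoters shown.
Prr9: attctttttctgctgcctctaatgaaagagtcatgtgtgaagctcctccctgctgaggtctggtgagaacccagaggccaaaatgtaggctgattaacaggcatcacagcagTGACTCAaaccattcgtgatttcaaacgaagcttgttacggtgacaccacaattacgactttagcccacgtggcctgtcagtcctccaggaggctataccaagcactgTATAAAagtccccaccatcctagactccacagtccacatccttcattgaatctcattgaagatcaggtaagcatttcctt
Lipo3: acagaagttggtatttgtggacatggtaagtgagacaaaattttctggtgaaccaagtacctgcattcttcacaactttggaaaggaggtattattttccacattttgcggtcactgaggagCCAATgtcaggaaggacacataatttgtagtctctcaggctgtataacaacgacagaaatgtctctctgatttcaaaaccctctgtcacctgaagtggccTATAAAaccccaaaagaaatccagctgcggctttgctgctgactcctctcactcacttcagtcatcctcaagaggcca
Capn11: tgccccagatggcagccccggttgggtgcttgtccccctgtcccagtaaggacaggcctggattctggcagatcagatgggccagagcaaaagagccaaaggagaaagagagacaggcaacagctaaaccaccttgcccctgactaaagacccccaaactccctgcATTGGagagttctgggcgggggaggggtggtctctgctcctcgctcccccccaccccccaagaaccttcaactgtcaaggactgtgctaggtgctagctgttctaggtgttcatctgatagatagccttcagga
Tac1: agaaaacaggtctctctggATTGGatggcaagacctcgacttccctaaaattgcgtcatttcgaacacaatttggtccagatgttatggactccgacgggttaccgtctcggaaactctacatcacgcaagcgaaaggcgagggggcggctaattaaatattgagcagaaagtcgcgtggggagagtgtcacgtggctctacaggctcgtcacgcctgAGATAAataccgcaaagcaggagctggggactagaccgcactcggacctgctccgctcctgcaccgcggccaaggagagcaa
Gata2: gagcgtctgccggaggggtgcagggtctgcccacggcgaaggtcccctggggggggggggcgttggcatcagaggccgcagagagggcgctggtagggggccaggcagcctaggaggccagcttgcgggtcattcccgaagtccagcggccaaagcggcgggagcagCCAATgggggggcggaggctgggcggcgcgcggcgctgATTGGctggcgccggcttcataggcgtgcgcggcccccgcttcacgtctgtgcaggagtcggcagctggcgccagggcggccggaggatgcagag
Evc: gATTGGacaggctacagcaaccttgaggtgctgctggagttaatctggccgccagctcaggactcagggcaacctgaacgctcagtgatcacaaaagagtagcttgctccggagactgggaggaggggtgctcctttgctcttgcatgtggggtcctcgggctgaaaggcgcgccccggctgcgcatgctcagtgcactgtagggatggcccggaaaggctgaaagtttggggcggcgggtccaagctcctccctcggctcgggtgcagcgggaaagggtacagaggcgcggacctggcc
Prr9 lies at chr3:92123898-92124197 on the minus strand, Lipo3 at chr19:33590262-33590561 on the minus strand and Capn11 at chr17:45659260-45659559 on the minus strand. Tac1 lies at chr6:7554811-7555110 on the plus strand, the second Gata2 start at chr6:88198414-88198713 on the plus strand and Evc at chr5:37336832-37337131 on the minus strand. The Prr9, Lipo3 and Capn11 promoters held 5, 3 and 3 CpG dinucleotides. The Tac1, Gata2 and Evc promoters held 22, 29 and 16. TATAAA stood 30 bases before the start in Prr9 and 28 before it in Lipo3.

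Across the 25 genes the lowest G2 value was 50.4 normalized counts and the highest 1281, against 0.0 and 8.1 in G0. Both G0 libraries had a count of 0 for 6 genes (Prr9, Rtn1, Smoc1, Tdg-ps, Capn11 and Adcy8), a further 7 had 1 to 3 counts in G0 in all, and 12 had more. For these 12, "off" means low and not absent. The median of the 25 G2 means was 123 normalized counts. All 25 passed the filter on low values, which the G2 threshold alone fixes. In bulk RNA, more cells expressing a gene and more RNA per cell cannot be told apart.

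**Figure D1:**
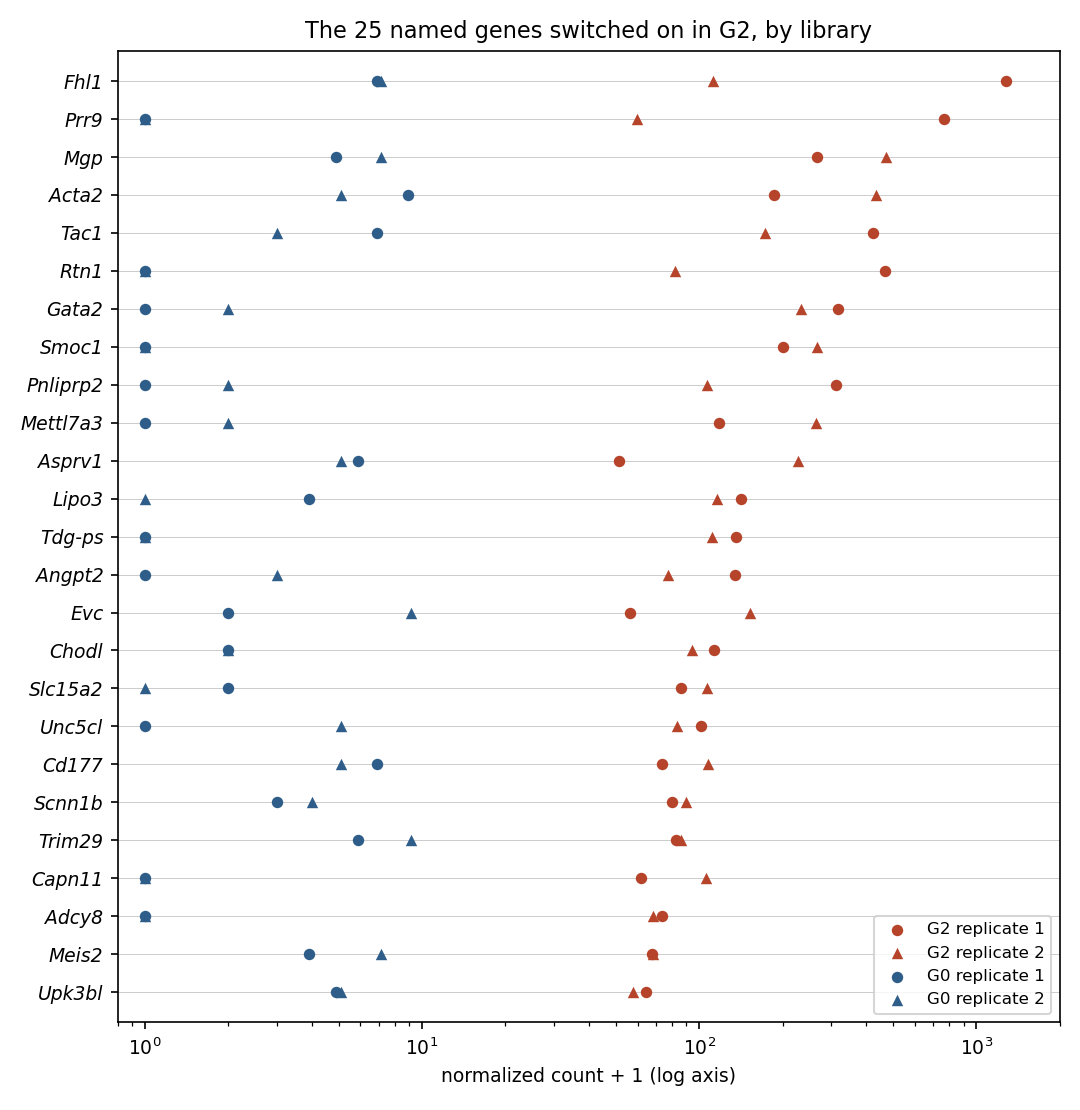
Normalized count plus 1 on a log axis for each of the 25 genes in the 4 libraries, with G2 in red, G0 in blue, circles for replicate 1 and triangles for replicate 2. Every G2 point lies at 50.4 or above and every G0 point at 8.1 or below before 1 is added, a gap that the choice of genes fixes, while the distance between the G2 symbols differs widely from gene to gene.

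Among genes of the cytoskeleton and its scaffolds, Fhl1 and Acta2 were taken. Fhl1 encodes a protein of LIM domains, abundant in skeletal muscle, and had 1280.8 and 111.4 normalized counts in G2, against 5.9 and 6.1 in G0. Its mean was 696 ± 827 in G2 and 6.0 ± 0.1 in G0 (SD, n = 2 each), a ratio of 116 that was 18.6 without G2 replicate 1 and 214 without G2 replicate 2. G2 replicate 1 was thus 11.5 times higher than G2 replicate 2. Fhl1 is on the X chromosome (GRCm38, chrX:56731209-56793346), and the lines also differ in Y transcripts by group. Whether sex chromosomes play a part in the level of Fhl1 was not tested. Fhl2 and Fhl3, its relatives, did not pass the test (adjusted p = 0.829 and 0.0554).

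Acta2, the actin of smooth muscle, had 184.6 and 434.0 normalized counts in G2, against 7.9 and 4.1 in G0, a ratio of means of 51.9 that was 31.0 without G2 replicate 2. Here G2 replicate 2 was the higher library, by 2.35 times. Acta1, Actb and Actg1, the other actins tested, did not pass (adjusted p = 0.425, 0.801 and 0.657). Of 11 other smooth muscle and muscle markers tested with limma, 0 rose and 1 fell, and an unadjusted p under 0.05 gave the same 0 and 1. The gene that fell was the troponin gene Tnnt2, with 37.3 and 37.1 in G2 against 153.2 and 230.6 in G0. Without Acta2 the list summed to 189 and 205 normalized counts in G2 and to 284 and 346 in G0. Myh11, the smooth muscle myosin, had 5.0 and 1.0 in G2 and 0 in both G0 libraries, Tagln had 5.0 and 19.5 in G2 against 2.9 and 5.1 in G0, and Lmod1 was at 0 in all 4. Acta2 abuts Stambpl1, which had 198.7 and 130.0 in G2 and 236.6 and 213.3 in G0, and whether the counting used strand is not stated.

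Of the nuclear regulators, Gata2 encodes a zinc finger transcription factor of blood stem cells and Meis2 a homeodomain cofactor of Hox and Pbx proteins. Gata2 had 315.7 and 232.6 normalized counts in G2, against 0.0 and 1.0 in G0, a ratio of 540 with a 95% exact counting interval of 97.9 to 21675. It was 270 without G0 replicate 1 and at least 93.1 without G0 replicate 2. The G2 libraries differed by 1.36 times. Meis2 had 66.6 and 67.4 in G2, against 2.9 and 6.1 in G0, a ratio of 14.8, so its level was low and even in G2. Its ratio was 11.0 without G0 replicate 1 and 22.7 without G0 replicate 2.

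Relatives of both regulators that the thresholds or the left-out names kept apart could be tested. Gata3, a factor of T cells and several epithelia, rose to 59.5 and 53.8 normalized counts in G2, against 12.8 and 21.3 in G0 (3.32-fold, adjusted p = 0.0407). Gata5, a factor of gut and heart, had 778.6 and 1752.6 in G2 and 1.0 and 9.1 in G0 (250-fold, adjusted p = 0.00172). Gata6 averaged 1490 in G2 and 1584 in G0 and did not pass (adjusted p = 0.694), so not every GATA gene of the table moved. Meis1 rose to 59.5 and 45.0 in G2, against 2.0 and 2.0 in G0 (log2 fold change 4.14, SE 0.47, adjusted p = 0.00359). Pbx3, a gene of a Meis partner, did not pass (adjusted p = 0.0763). On a list of 38 developmental transcription factors in the table, 24 outside the 25 genes were tested, of which 8 rose and 2 fell. Among those that rose, Sox2 had 48.4 and 21.5 in G2 and 0 in both G0 libraries (adjusted p = 0.00529), and Sox21 had 4111.6 and 4773.9 in G2 against 802.2 and 696.8 in G0 (adjusted p = 0.000315).

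These tests were read against the whole table. Of 13981 genes tested, 10.5% passed at an adjusted p of 0.05, 5.93% higher in G2 and 4.56% lower, and the median log2 fold change was 0.01. A hand-written set of relatives and partners of the 25 genes had 138 genes in the table, of which 106 were tested. Of these, 18 rose (17.0%) and 7 fell (6.60%), with a median log2 fold change of 0.16. The set was chosen with the identity of the 25 genes known, and many of its genes share a family or neighbourhood. Every adjusted p rests on 2 lines a group: without any one of the 4 libraries 0 genes passed, while 2376 to 3221 had an unadjusted p under 0.05.

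**Figure D2:**
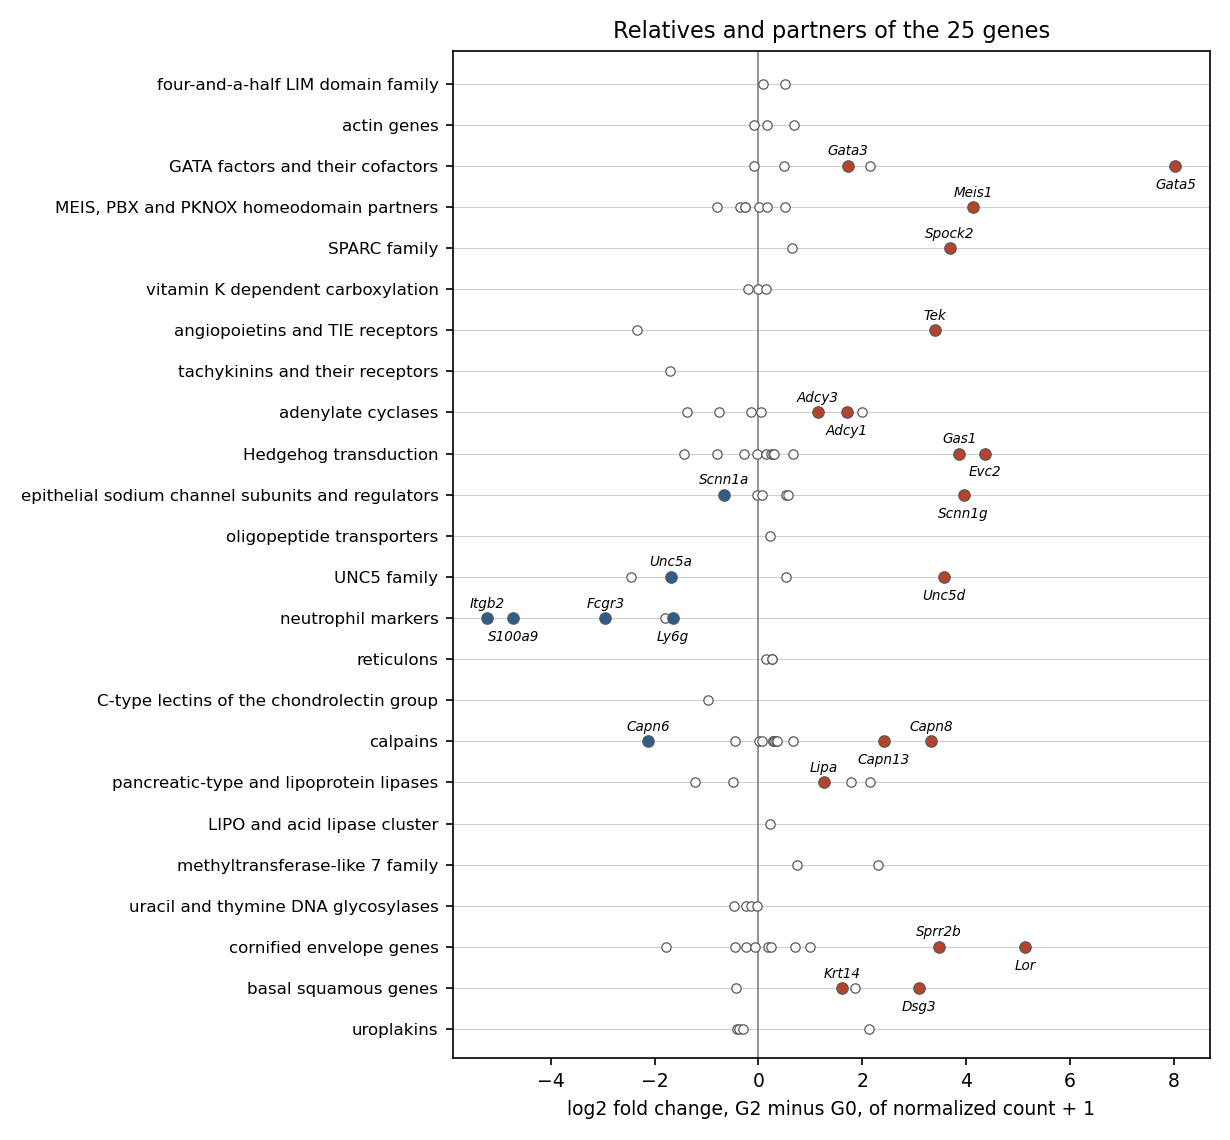
Log2 fold change, G2 minus G0, of the tested relatives and partners of the 25 genes, with 1 row per family. Filled points passed at an adjusted p of 0.05 (red higher in G2, blue lower) and open points did not, and 18 of 106 are red and 7 blue.

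Secreted proteins formed the next group. Mgp, a matrix protein that blocks calcification, had 266.2 and 473.1 normalized counts in G2, against 3.9 and 6.1 in G0, a ratio of 73.8. Smoc1, a matricellular protein that modulates BMP signalling, had 199.7 and 265.9 in G2 and 0 in both G0 libraries, at least 77.7-fold higher against a floor of 3 counts per library. The replicates of G2 differed by 1.78 times for Mgp and 1.33 times for Smoc1. Within the SPARC family to which Smoc1 belongs, Spock2 rose to 583.9 and 1588.4 in G2, against 56.0 and 97.5 in G0 (14.2-fold, adjusted p = 0.00547). Smoc2 had 2510.1 and 3637.1 in G2 and 1992.3 and 1895.5 in G0 and did not pass (adjusted p = 0.0817). Thbs2, another matricellular gene, rose to 4216.5 and 5669.3 in G2, against 14.7 and 74.2 in G0 (111-fold, adjusted p = 0.00131). On the list of matrix glycoproteins, 25 other genes were tested, of which 2 rose and 5 fell, so more of them fell than rose. Among all genes tested 5.93% rose and 4.56% fell. The carboxylation enzymes that Mgp needs, Ggcx and Vkorc1, did not pass (adjusted p = 0.713 and 0.539).

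Mgp and Smoc1 are also expressed by stromal cells, so fibroblast markers were read beside them. Of the 13 with values, 3 passed the filter and were tested, and 1 rose, Col3a1 with 7.1 and 6.8 normalized counts in G2 and 0 in both G0 libraries (adjusted p = 0.0404). The list summed to 25.2 and 53.8 in G2 and to 8.84 and 12.2 in G0, and Pdgfra and Dcn were at 0 in all 4 libraries.

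Angpt2, a ligand of the receptor Tek that destabilises vessels, had 134.1 and 76.2 normalized counts in G2, against 0.0 and 2.0 in G0, a ratio of 104 (95% exact counting interval 28.7 to 872). It was 51.8 without G0 replicate 1 and at least 35.7 without G0 replicate 2. G2 replicate 1 was 1.76 times higher than replicate 2. Tek itself rose to 47.4 and 45.0 in G2, against 2.9 and 4.1 in G0 (13.2-fold, log2 fold change 3.40, SE 0.45, adjusted p = 0.00587). Angpt2 was chosen on its own values, so of this ligand and receptor only the rise of Tek was tested. The related receptor gene Tie1 had 3.0 and 1.0 in G2 and 15.7 and 11.2 in G0 (adjusted p = 0.0628). Of 8 endothelial markers tested, 2 rose, Tek and Vwf, and the list summed to 163 and 247 in G2 and to 163 and 265 in G0. Pecam1 had 1.0 and 2.0 in G2 and 0 in both G0 libraries, Cdh5 had 0 in both G2 libraries and 1.0 and 0.0 in G0, and Erg was at 0 in all 4. Angpt2 lies within Mcph1, which had 361.0 and 384.1 in G2 and 450.7 and 431.7 in G0 (adjusted p = 0.38).

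Tac1, the precursor of substance P, had 421.6 and 172.0 normalized counts in G2, against 5.9 and 2.0 in G0, a ratio of 74.9 that was 43.4 without G2 replicate 1 and 146 without G0 replicate 1. G2 replicate 1 was 2.45 times higher. Its receptor family gave little to set beside it. Tacr3 had 4.0 and 0.0 in G2 and 7.9 and 5.1 in G0 (adjusted p = 0.27). Tac4 and Tacr2 were too low to test, and Tac2 and Tacr1 had no row under these names. Rtn1, a reticulon of the endoplasmic reticulum best known from neurons, had 467.9 and 81.1 in G2 and 0 in both G0 libraries, at least 91.6-fold higher, at least 27.1-fold without G2 replicate 1 and at least 156-fold without G2 replicate 2. Replicate 1 of G2 exceeded replicate 2 by 5.77 times. Rtn2, Rtn3 and Rtn4 did not pass (adjusted p = 0.666, 0.282 and 0.532). Of 7 enteric neuron and glia markers tested with limma 0 rose and 0 fell, with 1 higher and 1 lower at an unadjusted p under 0.05. The list summed to 1537 and 1672 in G2 and to 1151 and 1385 in G0, and Phox2a, S100b, Gfap and Foxd3 were at 0 in all 4 libraries.

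Evc encodes a protein of the primary cilium that passes on the Hedgehog signal together with Evc2. Evc had 55.5 and 151.5 normalized counts in G2, against 1.0 and 8.1 in G0, a ratio of 22.7. The ratio was 12.2 without G2 replicate 2, 12.7 without G0 replicate 1 and 105 without G0 replicate 2. G2 replicate 2 was 2.73 times higher than G2 replicate 1. Evc2, 1.5 kb away, followed with 48.4 and 190.6 in G2, against 1.0 and 10.2 in G0 (21.5-fold, log2 fold change 4.37, SE 0.94, adjusted p = 0.0315). For both genes replicate 2 was the higher library within each group. Evc overlaps Crmp1, which had 0.0 and 4.9 in G2 and 0.0 and 1.0 in G0.

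Other Hedgehog genes divided. Gas1, a surface coreceptor, rose to 30.3 and 81.1 normalized counts in G2, against 2.9 and 2.0 in G0 (22.4-fold, adjusted p = 0.00994). The ligand gene Shh rose to 24.2 and 48.9 in G2, against 0 in both G0 libraries (adjusted p = 0.00435), while Ihh had 17.1 and 18.6 in G2 and 5.9 and 3.0 in G0 (adjusted p = 0.0762). Ptch1, which is both receptor and target, averaged 613 in G2 and 496 in G0 (adjusted p = 0.264). Smo, the signal transducer, did not pass either (adjusted p = 0.936), and the target and effector genes Gli1 and Gli2 had at most 2.0 normalized counts in any library. Of 11 transduction genes tested besides Evc, 2 rose and 0 fell in limma, with 2 higher and 1 lower at an unadjusted p under 0.05.

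Adcy8, a calcium-stimulated adenylate cyclase, had 72.6 and 67.4 normalized counts in G2 and 0 in both G0 libraries, at least 23.4-fold higher and nearly equal in the G2 lines. Adcy1, also stimulated by calcium, rose to 52.4 and 60.6 in G2, against 22.6 and 12.2 in G0 (3.25-fold, adjusted p = 0.0487). Adcy3 rose to 348.9 and 524.9 in G2, against 163.0 and 231.6 in G0 (2.21-fold, adjusted p = 0.0446). Adcy6 averaged 1697 in G2 and 1640 in G0 and did not pass (adjusted p = 0.858). Of 7 other adenylate cyclase genes tested, 2 rose and none fell, with 3 higher and 1 lower at an unadjusted p under 0.05.

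Unc5cl, a death domain protein of epithelial inflammatory signalling, had 100.8 and 82.1 normalized counts in G2, against 0.0 and 4.1 in G0, a ratio of 45.0 that was 22.5 without G0 replicate 1. The netrin receptor genes after which it is named moved in both directions. Unc5d rose to 16.1 and 15.6 in G2, against 1.0 and 0.0 in G0 (adjusted p = 0.0183), and Unc5a fell to 69.6 and 60.6 in G2, against 199.3 and 226.5 in G0 (log2 fold change -1.69, adjusted p = 0.00817). Ntn1, the gene of the ligand netrin 1, had 92.8 and 266.8 in G2 and 8.8 and 2.0 in G0, just outside the G0 threshold. Of 31 axon guidance genes tested, 10 rose and 1 fell, against 5.93% and 4.56% of all genes tested.

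Cd177, a surface glycoprotein known from neutrophils, had 72.6 and 106.5 normalized counts in G2, against 5.9 and 4.1 in G0, a ratio of 18.0. Of 5 other neutrophil markers tested, 0 rose and 4 fell, against 5.93% and 4.56% of all genes tested. Itgb2 had 2.0 and 0.0 in G2 against 50.1 and 81.3 in G0 (adjusted p = 0.00535), and S100a9 had 0 in both G2 libraries against 27.5 and 23.4 in G0 (adjusted p = 0.00506). Ly6g fell to 4587.6 and 3058.5 in G2, against 11184.8 and 12147.9 in G0 (adjusted p = 0.00506). The 9 other neutrophil markers in the table summed to 4590 and 3060 in G2 and to 11269 and 12265 in G0, nearly all of it from Ly6g. At an unadjusted p under 0.05, 0 were higher and 4 lower. Of 6 macrophage and myeloid markers tested, 2 rose and 0 fell, with 3 higher and 0 lower at an unadjusted p under 0.05, and the list summed to 3284 and 4121 in G2 and to 2122 and 3343 in G0. Cd14 rose to 2105.7 and 2197.3 in G2, against 990.7 and 1230.1 in G0 (adjusted p = 0.0107), and Csf1r had 16.1 and 4.9 in G2 and 0 in both G0 libraries (adjusted p = 0.0431). Itgam, Ptprc, Cx3cr1 and Spi1 of that list were at 0 in all 4 libraries. The part of these markers in the Cd177 result was not tested.

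Among genes of transport, Scnn1b encodes the beta subunit of the epithelial sodium channel of the distal colon. Scnn1b had 78.7 and 88.9 normalized counts in G2, against 2.0 and 3.0 in G0, a ratio of 33.4, and the G2 libraries were close to each other. The gamma subunit gene Scnn1g, 96.6 kb away, rose to 36.3 and 11.7 in G2, against 1.0 and 0.0 in G0 (log2 fold change 3.95, adjusted p = 0.0218). The alpha subunit gene Scnn1a fell to 3774.8 and 3286.2 in G2, against 5256.1 and 6009.5 in G0 (log2 fold change -0.67, adjusted p = 0.0318). The channel genes thus changed in opposite directions. Slc15a2, a carrier of small peptides, had 84.7 and 105.6 in G2, against 1.0 and 0.0 in G0, a ratio of 194 (95% exact counting interval 33.9 to 7578). Without G0 replicate 1 it was at least 31.2, and without G0 replicate 2 it was 96.9. The related carrier Slc15a4 did not pass (adjusted p = 0.456).

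Of the enzymes, Pnliprp2 encodes a lipase related to that of the pancreas and Lipo3 a lipase of the acid lipase family. Pnliprp2 had 311.6 and 105.6 normalized counts in G2, against 0.0 and 1.0 in G0, a ratio of 411 (95% exact counting interval 74.0 to 16413). This ratio was 208 without G2 replicate 1, 205 without G0 replicate 1 and at least 70.8 without G0 replicate 2. Lipo3 had 140.2 and 115.3 in G2, against 2.9 and 0.0 in G0, a ratio of 86.7 (interval 28.8 to 416), which was at least 41.9 without G0 replicate 1 and 43.4 without G0 replicate 2. Pnliprp2 was 2.95 times higher in G2 replicate 1, while Lipo3 differed by 1.22 times. Lipa, the lysosomal acid lipase, rose to 401.4 and 374.4 in G2, against 170.9 and 151.4 in G0 (2.41-fold, adjusted p = 0.00966). The pancreatic genes Pnliprp1 and Clps stayed low, with 0.0 and 18.6 and with 1.0 and 4.9 in G2, and with 0 in both G0 libraries.

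Capn11, a calpain protease known from testis, had 60.5 and 104.6 normalized counts in G2 and 0 in both G0 libraries, at least 27.5-fold higher. Capn13 rose to 390.3 and 409.6 in G2, against 57.0 and 96.5 in G0 (5.21-fold, adjusted p = 0.00424), and Capn8, a calpain of the stomach, to 15.1 and 17.6 in G2, against 2.0 and 0.0 in G0 (adjusted p = 0.032). Capn6 fell to 38.3 and 43.0 in G2, against 193.4 and 168.6 in G0 (log2 fold change -2.13, adjusted p = 0.00511). Of 12 calpain genes tested, 2 rose and 1 fell, against 5.93% and 4.56% of all genes tested. On a list of germline genes, 7 were tested, of which 0 rose and 1 fell, with 1 higher and 1 lower at an unadjusted p under 0.05.

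Sequence copies limit at least a pair of the 25 genes. Mettl7a3, a methyltransferase-like gene, had 117.0 and 262.0 normalized counts in G2, against 0.0 and 1.0 in G0, and the counting could have split its reads with similar copies. Mettl7a1 had 460.9 and 637.3 in G2 and 279.8 and 372.8 in G0 (adjusted p = 0.091). Tdg-ps, a pseudogene by name that RefSeq types as protein coding, had 135.1 and 110.5 in G2 and 0 in both G0 libraries. Its parent Tdg, a DNA glycosylase, had 1726.5 and 1894.3 in G2 and 2145.5 and 1886.3 in G0 (adjusted p = 0.512). The assignment of reads to Mettl7a3 and Tdg-ps is uncertain for this reason.

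Genes of the epidermis and other stratified epithelia made up the last group. Prr9, a proline-rich gene of the epidermal differentiation complex on chromosome 3, had 762.4 and 58.6 normalized counts in G2 and 0 in both G0 libraries. Its ratio was at least 137, at least 19.6 without G2 replicate 1 and at least 254 without G2 replicate 2. Asprv1, a protease that processes filaggrin in skin, had 50.4 and 226.8 in G2, against 4.9 and 4.1 in G0, a ratio of 30.9 that was 50.5 without G2 replicate 1 and 11.2 without G2 replicate 2. The uneven libraries ran in opposite directions, with Prr9 13.0 times higher in replicate 1 and Asprv1 4.50 times higher in replicate 2. Trim29, a tripartite motif protein of stratified epithelia, had 81.7 and 85.0 in G2, against 4.9 and 8.1 in G0, a ratio of 12.8. Upk3bl, a uroplakin-like gene, had 63.5 and 56.7 in G2, against 3.9 and 4.1 in G0, a ratio of 15.0. Both of these were even between the G2 lines.

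Loricrin, the main cornified envelope protein, is encoded by Lor 39.1 kb from Prr9 and had 4667.3 and 693.0 normalized counts in G2, against 47.1 and 52.8 in G0 (53.6-fold, adjusted p = 0.00868). Like Prr9, Lor was higher in G2 replicate 1. Krt14, a keratin of basal cells, rose to 916.7 and 1107.5 in G2, against 328.9 and 332.2 in G0 (3.06-fold, adjusted p = 0.00227). Dsg3, a desmosomal cadherin, rose to 116.0 and 104.6 in G2, against 12.8 and 11.2 in G0 (9.21-fold, adjusted p = 0.00301). Trp63, the master regulator of stratified epithelia, had 12.1 and 0.0 in G2 and 0 in both G0 libraries and did not pass (adjusted p = 0.386). Of 21 squamous and transition zone markers tested, 8 rose and 1 fell, against 5.93% and 4.56% of all genes tested. The marker that fell was Krt4, which had 7673.6 and 2332.2 in G2 and 24041.9 and 33254.2 in G0. The list summed to 93652 and 69846 in G2 and to 105675 and 134148 in G0, so its sum was lower in G2 while more of its genes rose than fell. Of 10 cornified envelope genes tested 2 rose. Of 4 uroplakins 0 passed in limma, and 1 was higher at an unadjusted p under 0.05.

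Chodl, a membrane lectin described in muscle and motor neurons, had 111.9 and 92.9 normalized counts in G2, against 1.0 and 1.0 in G0, a ratio of 103 (95% exact counting interval 28.0 to 851). Per kilobase of merged exons the highest G2 means were those of Prr9 at 347 normalized counts per kb, Mgp at 311 and Fhl1 at 187. Slc15a2 at 12.9, Adcy8 at 8.59 and Meis2 at 5.56 were the lowest of the 25. The means of Prr9 and Fhl1 rested mostly on G2 replicate 1, so their rank holds for the mean and not for each line. Before scaling by length, Prr9 had 762.4 and 58.6 in G2, Fhl1 1280.8 and 111.4, and Mgp 266.2 and 473.1.

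The spread between the G2 lines is given as a description, since the same G2 values chose the genes. Of the 25 genes, 13 were higher in G2 replicate 1 and 12 in replicate 2. Their median difference was 1.47-fold, and 9 (36.0%) differed by more than 2-fold. Fhl1, Prr9, Rtn1, Pnliprp2 and Tac1 were higher in line 157, and Asprv1, Evc, Acta2 and Mettl7a3 in line 236. Over the 10509 genes at or over the G2 threshold in both G2 lines, the median was 1.12-fold and 162 (1.54%) differed by more than 2-fold. Among the 5405 of them with a mean in the range of the 25 genes, the median was 1.14-fold and 129 (2.39%) exceeded 2-fold.

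**Figure D3:**
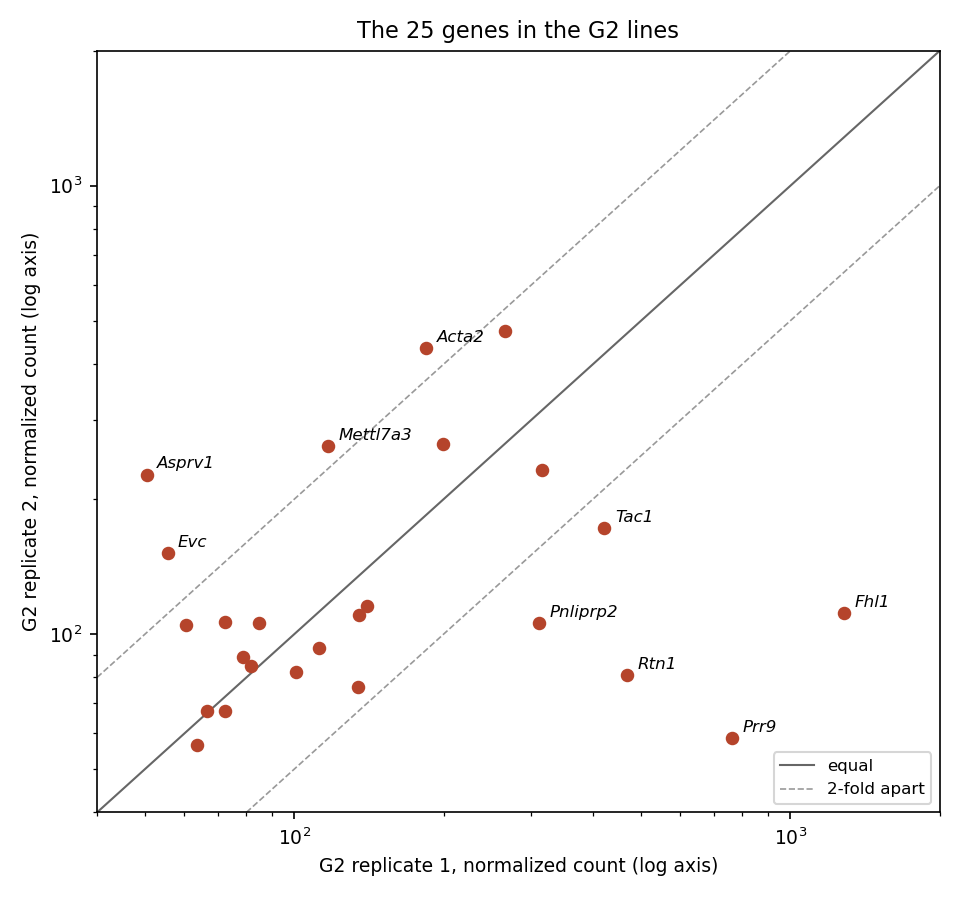
Normalized count of each of the 25 genes in G2 replicate 1 (x axis) and G2 replicate 2 (y axis), both on log axes, with a solid line for equal values and dashed lines for a 2-fold difference. The 9 named genes lie outside the dashed lines, 5 towards replicate 1 and 4 towards replicate 2, and the other genes lie between them.

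The thresholds cut through a continuous range. Evc and Trim29 at 8.1 and Acta2 at 7.9 normalized counts were the closest inside the G0 limit. Just outside it were Ntn1, Vwa2 with 78.7 and 174.0 in G2 and 8.8 and 7.1 in G0, and Cadps2 with 162.4 and 83.1 in G2 and 9.8 and 9.1 in G0. At the G2 limit, Asprv1 at 50.4, Evc at 55.5 and Upk3bl at 56.7 were the closest inside. Zc3h12d with 59.5 and 47.9 in G2 and 6.9 and 5.1 in G0, Trpv6 with 47.4 and 49.9 in G2 and 1.0 and 1.0 in G0, and Clec2f with 77.7 and 46.9 in G2 and 0 in both G0 libraries were just outside.

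Promoter composition was not part of the rule. Taking for each gene the start with the most CpG, the 19 genes with a sequence had a median of 6 CpG dinucleotides in 300 bases. The median was 9 for 12 of the genes switched off in G2, 7 for the 2439 genes at or under the G0 threshold in all 4 libraries and 23 for the 7966 genes at or over the G2 threshold in all 4. At most 10 CpG were found in 14 of the 19 (73.7%), against 60.1% of these low and 9.62% of these expressed genes. Over all genes of the table it was 27.1%, and over all promoters given 56.2%. In CpG content the 19 promoters thus resembled those of genes low in all 4 lines more than those of genes expressed in all 4. The exceptions were Rtn1 with 43 CpG at one of its starts, Gata2 with 32 and 29 at its starts, Tac1 with 22, Evc with 16 and Meis2 with 13. Smoc1, Mgp, Angpt2, Adcy8, Mettl7a3 and Trim29 are named only.

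**Figure D4:**
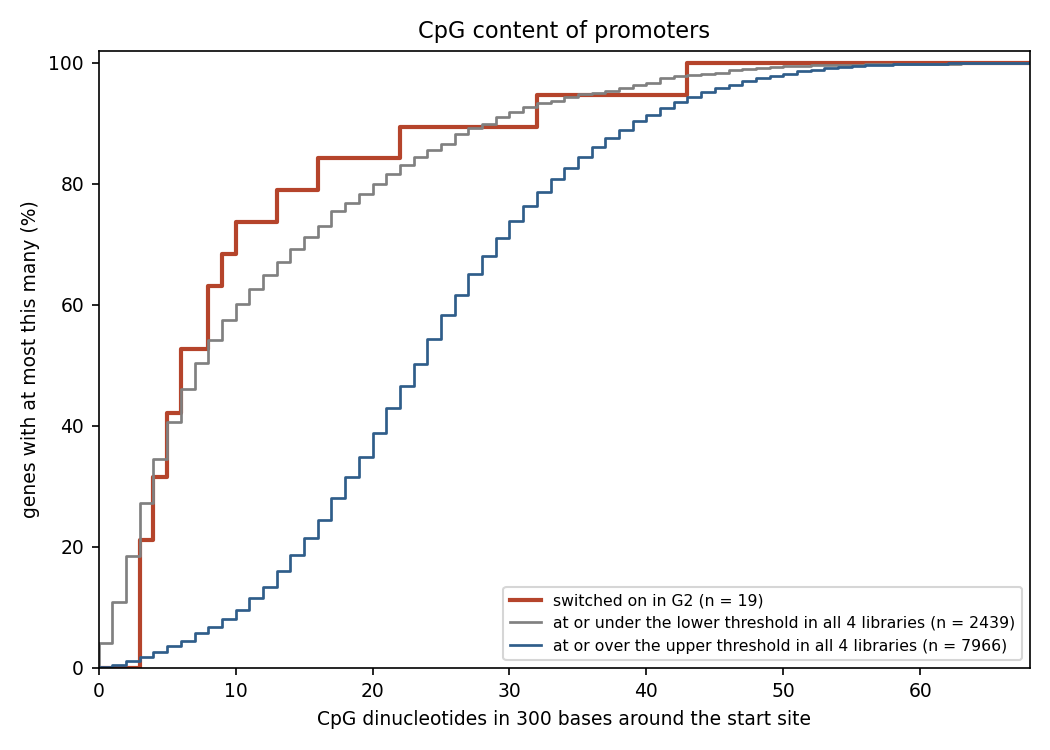
Cumulative share of genes (y axis, percent) with at most the given number of CpG dinucleotides in 300 bases around the start site (x axis). Shown are those of the 25 genes with a sequence (n = 19, red), genes at or under the G0 threshold in all 4 libraries (n = 2439, grey) and genes at or over the G2 threshold in all 4 (n = 7966, blue). The red line follows the grey one and lies far above the blue, with 73.7% against 9.62% at 10 CpG.

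Short motifs were counted on both strands, with overlaps allowed. TATAAA was found in 5 of 19 promoters (26.3%), at 30 bases before the start in Prr9, 28 in Lipo3 and 40 in Cd177, and further off at 152 in Meis2 and 156 in Fhl1. The share was 16.6% of genes low in all 4 libraries, 7.73% of genes expressed in all 4 and 15.7% of all promoters given. CCAAT was found in 11 (57.9%), against 40.5%, 43.6% and 41.1% in the same sets, and in Meis2 it overlapped the match to CAATAAA. That posterior Hox motif had its single match there (5.26%, against 5.33% of all promoters). AGATAA was found in Tac1 and Slc15a2 (10.5%, against 12.7% of all promoters), TGANTCA in Prr9 (5.26%, against 8.97%) and ATCAAAG in 0 of 19 (against 4.29%). For all genes of the table the shares were 10.8% for TATAAA, 42.7% for CCAAT and 3.27% for CAATAAA. They were 8.92% for AGATAA, 7.01% for TGANTCA and 3.33% for ATCAAAG. All these shares count a gene once, with its starts pooled. A match describes letters in this window and not a bound site.

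The 25 genes lay on 13 chromosomes, with 4 on chromosome 6 and 3 each on chromosomes 15 and 19. None of the 25 had another gene passing both thresholds within 100 kb, nor within 250 kb. Among all 16719 positioned genes, 0.70% and 1.43% had one. With shares this low, finding none among 25 genes cannot be told apart from the share of all genes. Passing genes of left-out families, such as Gsdmc2, Gsdmc3 and Gsdmc4, could not be among the 25, so the left-out names also limit this result. Of 59 tested neighbours of the 25 genes within 100 kb, 9 rose (15.3%) and 3 fell (5.08%), and their median log2 fold change was -0.08. Within 250 kb, 14 of 139 rose (10.1%) and 6 fell (4.32%). The shares over all genes tested were 5.93% higher and 4.56% lower, so the shares of neighbours that fell were near the latter.

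Single neighbours moved with some of the genes. Besides Evc2, Lor and Scnn1g, Apobec2, 21.4 kb from Unc5cl, rose to 51.4 and 31.3 normalized counts in G2, against 0 in both G0 libraries (log2 fold change 5.36, adjusted p = 0.00299). Ceacam10, 16.8 kb from Cd177, rose to 13.1 and 25.4 in G2, against 0 in both G0 libraries (adjusted p = 0.0102). Pglyrp3, a peptidoglycan recognition gene 89.5 kb from Prr9, rose to 18.2 and 18.6 in G2, against 2.0 and 3.0 in G0 (adjusted p = 0.0315). Mxd1, 17.3 kb from Asprv1, rose by 1.05 on the log2 scale (adjusted p = 0.00933). BC049715, 30.5 kb from Mgp, rose to 10.1 and 9.8 in G2, against 1.0 and 1.0 in G0 (adjusted p = 0.0487). Not all neighbours followed. Gucy2c, the guanylin receptor gene 90.7 kb from Mgp, fell to 52.4 and 38.1 in G2, against 186.6 and 229.6 in G0 (log2 fold change -2.19, adjusted p = 0.00582). Ildr1, 23.4 kb from Slc15a2, fell by 0.75 on the log2 scale (adjusted p = 0.0184), and near Capn11 the nucleoside transporter gene Slc29a1 fell by 0.98 (adjusted p = 0.0119) while Nfkbie rose by 1.25 (adjusted p = 0.00869).

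**Figure D5:**
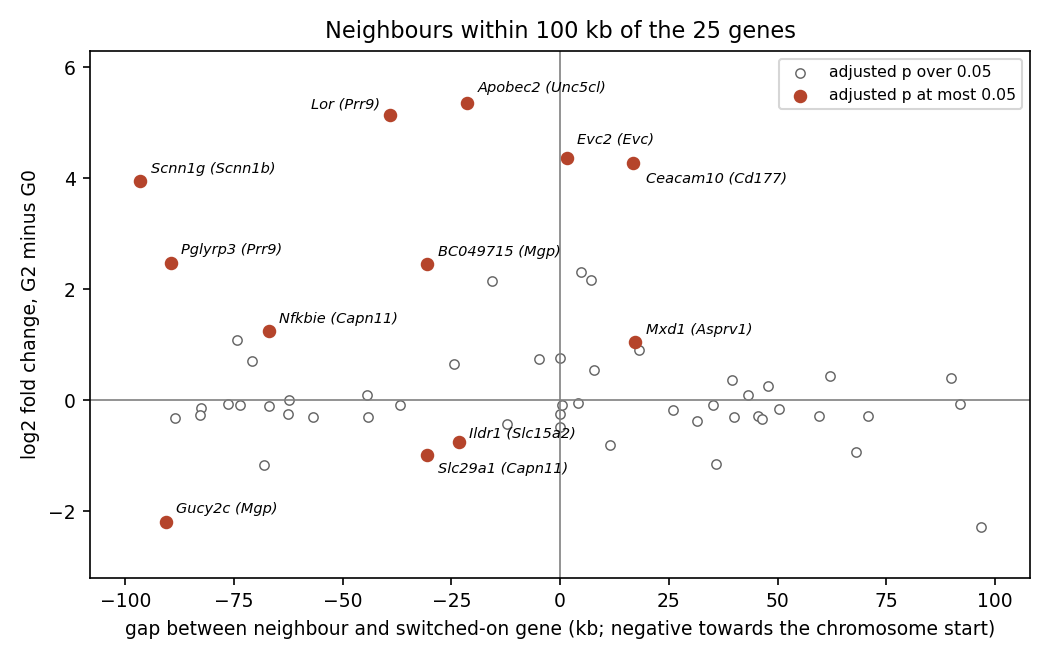
Log2 fold change, G2 minus G0, of the 59 tested neighbours (y axis) by their gap in kb to the nearest edge of the switched-on gene (x axis, negative towards the chromosome start). Filled points passed at an adjusted p of 0.05 and carry the neighbour's name with the switched-on gene in brackets, 9 of them above 0 and 3 below. The shares over all genes tested were 5.93% higher and 4.56% lower.

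The enzymes that write repressive chromatin marks were read beside these genes. Of 31 polycomb and DNA methylation genes tested with limma, 0 rose and 2 fell, with 6 higher and 6 lower at an unadjusted p under 0.05. Over all genes tested, 5.93% rose and 4.56% fell. Dnmt1, the maintenance DNA methyltransferase, fell to 3216.1 and 3268.6 normalized counts in G2, against 4599.2 and 5004.8 in G0 (adjusted p = 0.0374). Its cofactor Uhrf1 fell to 1865.7 and 1676.3 in G2, against 2828.9 and 2661.4 in G0 (adjusted p = 0.0286). Whether these levels play a part in the 25 genes was not tested.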

How the data were processed

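RNA from 4 mouse adenoma colonoid lines, 2 of G2 and 2 of G0, was isolated with an RNeasy kit and libraries were made by BGI, per the labels' protocols. Tools listed in the submitters' processing notes are DESeq2 1.32.0, StringTie 2.1.1, HISAT2 2.1.0, bcl2fastq 2.20.0 and R 3.5.2, with the build mm10. The authors deposited log2 values with a shared floor of 6.508. Which annotation, strand setting and filters they used is not given in the sources here.

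The floor is what a variance-stabilizing transformation gives to a count of 0. Inverting it, with 1 scale factor per library, gave whole counts for every value within 0.001 (largest distance 0.000564). Counts divided by these factors are the normalized counts of the text. StringTie estimates coverage, so the counts may be rounded estimates. Folds are ratios of group means. With both libraries of G0 at 0 they are lower bounds against 3 counts per library, and with 1 to 3 counts in G0 they carry a 95% exact interval. Floors and intervals cover counting error only.

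Genes outside the 25 were tested with limma 3.58.1 in R 4.3.3 (eBayes with trend, two-sided) on log2(normalized count + 1), for a mean of at least 1, with Benjamini-Hochberg adjustment over 13981 genes and a threshold of 0.05. Such log2 fold changes understate the change of low genes. Steps were checked on simulated data. No count model was run, since the deposited unit is log2. Genes were positioned by RefSeq on GRCm38.p6 (16719 of 16857, 99.2%), and lengths per kb are merged exons of GENCODE M21. Alternatives changed the pseudocount, filter, scaling, trend, block, libraries, thresholds and window.

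The 25 genes and all lists were chosen with earlier results of these data known. All 25 were named. Genes outside them were named from the lists and from the 100 kb neighbours, and some were singled out after their values were seen. Some genes of the lists are not reported here.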

Additional observations from a re-analysis of the deposited data

How the results depend on the processing

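Counts of genes past the adjusted threshold depended on how the spread between 2 lines was modelled. Without the intensity trend 623 genes passed, against 1467, 382 of them higher and 241 lower, and list genes outside the 25 numbered 32 higher and 19 lower, against 76 and 33 of 437, with 10 relatives higher, against 18. A replicate block gave 3503 calls, 1859 higher and 1644 lower, with 120 list genes higher, 58 lower and 12 relatives lower, against 7. The replicate numbers only name lines, and same-numbered libraries deviated together weakly (correlation 0.109 over 2 pairs), so the block is no better founded. Leaving out any single library gave 0 to 0 calls, over all genes, higher and lower genes, list genes and relatives. The lone library of a group was then assumed to vary like the other group, and the unadjusted p was under 0.05 for 2376 to 3221 genes. Of 34 called genes followed by name, 29 to 33 kept their call under the other pseudocounts, filters, scaling and scale, 20 without the trend and 34 with the block, and none of these settings reversed one. Adcy1, Adcy3, Evc2, Gata3 and Scnn1a lost theirs without the filter or without the trend, and Capn8, Gas1, Ildr1, Lor, Ly6g, Mxd1, Scnn1g, Slc29a1 and Spock2 without the trend. Adcy1 and BC049715 lost theirs with a pseudocount of 0.5, Fcgr3 with one of 5, Adcy1 and Fcgr3 after scaling by totals, and BC049715 on the deposited scale and with a stricter filter. With the lower of 2 other G2 thresholds the rule took 44 genes in place of 25, and leaving out 1 library it took 31 to 53. The other thresholds gave 17, 37 and 18. No gene passing both thresholds lay within 50 or 250 kb of one of the 25. Leaving out a G2 library moved the ratio of 6 or 7 of the 25 by over 1.5 times, and leaving out a G0 library that of 8 or 9, mostly genes with few G0 counts. Levels of 1 to 3 counts in G0 cannot be ordered at this depth.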
